A study of Mus musculus with 6 samples.

Results

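The genes of oxidative phosphorylation were followed in newborn mouse lenses that lack Hsf4, a heat shock transcription factor needed for lens fiber cell differentiation. Members were the probe sets with exactly 1 gene symbol in the platform annotation that starts with Nduf, Uqcr, Atp5 or Cox4 to Cox8, or that equals Sdha, Sdhb, Sdhc, Sdhd or Cyc1. This gave 157 of 22626 probe sets, and with the brightest probe set taken for each gene, 85 of 12393 genes. Complex I held 39 of them, complex II 4, complex III 9, complex IV 16 and complex V 17. Of the 39 genes of complex I, 5 (Ndufaf1, Ndufaf3, Ndufaf4, Ndufaf5 and Ndufaf7) encode assembly factors and not subunits. This leaves 80 genes that were counted as subunits by their symbols alone, Cox7a2l among them. Another 8 probe sets with a symbol of this kind carried several symbols and were left out.

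RNA was measured on 6 Affymetrix arrays, 3 from wild-type and 3 from Hsf4-null lenses. Both groups are labelled as newborn and as strain ICR, and each array was made from 50 ng of total RNA after amplification. The labels do not describe the null allele, and how many lenses were pooled for an array is not stated in them or in the methods, so that the p-values measure the spread between arrays. The values are intensities on a log2 scale, on which the array medians lay between 5.22 and 5.38. Hsf4 itself checked the labels: its level was 9.09, 9.39 and 9.56 in the wild-type lenses and 4.26, 4.09 and 3.78 in the Hsf4-null lenses. Of 8 measured genes listed as lens fiber markers, 3 (Bfsp1, Dnase2b and Hmox1) were called lower in the Hsf4-null lenses by limma. Their changes were -1.65, -1.24 and -2.50. Of these, Hmox1 is a heme oxygenase made in many cell types and is not particular to fiber cells. Over all genes 2.11% were called lower. Mip, Cryba1, Crygs and Gja3 were not called, at changes of -0.14, 0.02, -0.03 and -0.04. Lhx2, at 0.44 and not called, was counted in this list but is not a marker of fiber cells. The summed intensity of the 8 was 60122 to 62168 in wild-type and 47288 to 52078 in Hsf4-null lenses. This difference was not shared by all 8, whose median log2 change was -0.09. Among markers of lens epithelium 0 of 11 were called by limma, with 2 lower at an unadjusted p under 0.05, against 8.38% of all genes. The summed intensity of 4 blood markers was 74.0 to 88.3 in wild-type and 101.7 to 121.3 in Hsf4-null lenses. Their wild-type means were at most 4.86, under the lowest array median, and 2 of their estimates were above 0 and 2 below. The sum of 13 mesenchyme and cornea markers was 705.5 to 922.0 and 1193.6 to 1435.8, with 7 of them below the lowest array median on every array. Neither sum overlapped between the groups. Of the 13 mesenchyme and cornea markers 2 were called higher by limma and 0 lower, against 0.775% and 2.11% of all genes. The summed intensity of 14 vascular markers (1834 to 2492 and 2611 to 2709) did not overlap either, and those of 16 macrophage markers (810.4 to 1959 and 1355 to 2649), 10 pigment cell markers (3167 to 4352 and 3872 to 5161) and 12 retina markers (544.1 to 1433 and 361.7 to 1758) did. None of the blood, vascular, macrophage, pigment cell and retina markers was called by limma. At an unadjusted p under 0.05, 5 vascular, 4 macrophage, 2 pigment cell, 2 blood and 0 retina markers were higher, and 1 macrophage marker was lower. Over all genes 7.34% were higher and 8.38% lower at that threshold. The part of these lists in the values below was not tested. In whole lenses, fewer cells of a type and less RNA per cell cannot be told apart.

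Oxidative phosphorylation takes electrons from NADH at complex I and from succinate at complex II, passes them through complex III and cytochrome c to oxygen at complex IV, and uses the proton gradient built on the way to make ATP at complex V. Most subunits are encoded in the nucleus and imported, and a core of complexes I, III, IV and V is encoded in mitochondrial DNA. In the lens, epithelial cells and young fiber cells hold mitochondria, and maturing fiber cells degrade them together with their nuclei. Of the 13 subunits encoded in mitochondrial DNA, 0 had a probe set of their own here.

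The nuclear genes of this pathway are known to share promoter elements for NRF1, for the ETS factor GABP, whose DNA-binding subunit is Gabpa, and for YY1. Promoter windows of 300 bases (250 before and 50 after the transcription start) were found for 70 of the 85 members in the RefSeq annotation of GRCm38.p6. The following stretches upstream of the start are shown because their genes carry the NRF1 or GABP letters and because the values of these genes and of Gabpa are given below. Capitals mark the motif, and all are read 5′ to 3′ along the gene's strand, here the minus strand.
Atp5h, GABP, chr11:115419931-115419978: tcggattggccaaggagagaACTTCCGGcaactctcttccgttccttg
Uqcr11, GABP, chr10:80406860-80406907: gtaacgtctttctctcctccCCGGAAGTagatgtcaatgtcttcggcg
Cox6a1, NRF1, chr5:115349091-115349140: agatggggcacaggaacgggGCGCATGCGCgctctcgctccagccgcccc
Atp5g2, NRF1, chr15:102671060-102671109: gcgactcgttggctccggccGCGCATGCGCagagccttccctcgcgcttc
Sdhd, NRF1, chr9:50603899-50603948: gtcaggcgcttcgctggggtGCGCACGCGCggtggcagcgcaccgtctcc

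Searched on both strands, the NRF1 letters (GCGCA and GCGC with any base between them) were in 16 of the 70 member promoters, or 22.9%, against 5.19% of the promoters of 27025 genes. The GABP letters CCGGAAGT were in 5 (Atp5h, Cox8a, Ndufs3, Uqcr11 and Uqcrh), or 7.14% against 4.31%. A YY1 motif was in 5 (Atp5b, Atp5j, Ndufa9, Ndufs4 and Ndufs7), or 7.14% against 1.6%. A heat shock element of 3 alternating GAA and TTC units, with any 2 bases between units, was in 0 of the 70 windows, against 0.662% of all genes. A match is a description of the letters in these windows, and says nothing of binding in the lens.

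Taken gene by gene, the members differed little between the groups. None of the 85 genes was called higher and none lower in the Hsf4-null lenses by limma with a Benjamini-Hochberg adjusted p under 0.05 over all probe sets, against 0.775% of the 12393 genes called higher and 2.11% called lower. The lowest adjusted p among members was 0.0870. At an unadjusted p under 0.05, 3 members were higher (Ndufs8, Cox6a2 and Atp5g1) and 2 lower (Cox8b and Cox6c), against 7.34% and 8.38% of all genes. The arrays of the groups did not overlap for 7 members that were higher (Atp5g1, Atp5e, Cox6a2, Atp5a1, Ndufv3, Ndufb10 and Sdhd) and for 3 that were lower (Ndufa4, Cox5a and Cox8b), against 10.1% and 11.5% of all genes. By the methods' t-test without adjustment 5 members passed, against 13.4% of all genes, and after Benjamini-Hochberg adjustment 0 did.

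The precision of these values can be read from the intervals. For 76 of the 85 members (89.4%) the 95% interval of the change lay wholly within 1.5-fold in either direction, against 72.9% of all genes and 77.01% of the 4785 genes at least as bright as the tenth percentile of the members. The median log2 change was 0.0005 over the members and 0.007 over all genes, with quartiles of -0.06 and 0.07 over the members. The median size of the change, without its sign, was 0.07 for the members and 0.13 for all genes. The 9 members whose interval passed 1.5-fold were Ndufb8, Ndufs8, Sdhc, Cox8b, Cox6c, Cox7c, Cox6b2, Cox6a2 and Atp5g1, of which 5 belong to complex IV.

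**Figure D1:**
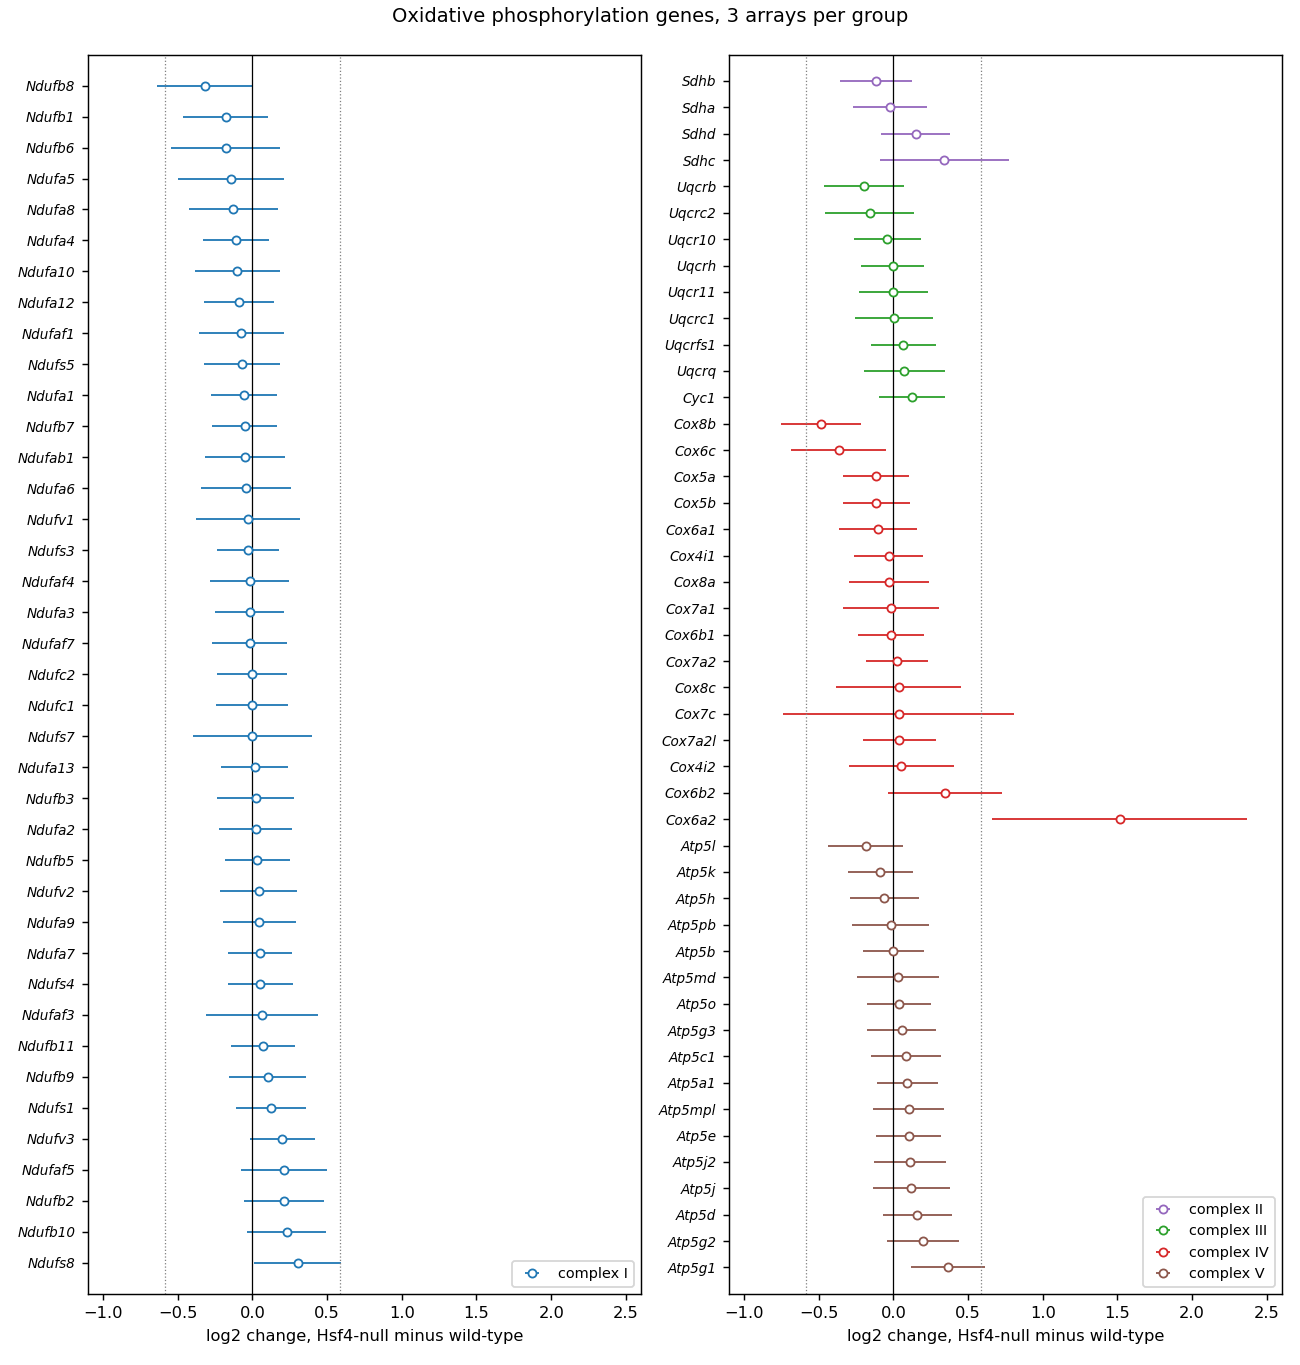
Log2 change (Hsf4-null minus wild-type, horizontal axis) of the 85 genes, with complex I on the left and complexes II to V on the right; circles are estimates, bars 95% intervals of the limma fit, and dotted lines mark 1.5-fold. Apart from Cox6a2 at 1.52, estimates lay between -0.48 and 0.36.

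Complex I, which oxidises NADH, had a median log2 change of -0.004 over its 39 genes, with 18 estimates above 0. The flavoprotein Ndufv1, which holds the NADH site, was at 9.60, 10.09 and 9.86 in wild-type and 9.82, 9.66 and 9.99 in Hsf4-null lenses, a change of -0.03 ± 0.15 (SE, n = 3 per group). Its partner Ndufv2 changed by 0.04 ± 0.11, and the iron-sulfur subunits Ndufs1 and Ndufs7 by 0.12 ± 0.10 and by 0.0003 ± 0.17. The groups overlapped for all 4 of these core subunits. The highest estimate of the complex was that of Ndufs8, another iron-sulfur subunit, at 9.75, 10.06 and 9.72 in wild-type and 10.15, 10.25 and 10.04 in Hsf4-null lenses. Its change was 0.30 ± 0.13 (limma adjusted p = 0.307), wild-type replicate 2 overlapped with the Hsf4-null arrays, and its 6 probe sets ranged from -0.04 to 0.32. The lowest estimate was that of Ndufb8, an accessory subunit, at -0.32 ± 0.14 (adjusted p = 0.332), with wild-type values of 11.55, 11.94 and 11.98 and Hsf4-null values of 11.40, 11.60 and 11.52. Here wild-type replicate 1 lay among the Hsf4-null arrays. The accessory subunits Ndufv3 (12.17 to 12.27 in wild-type, 12.36 to 12.50 in Hsf4-null) and Ndufb10 (10.51 to 10.64, and 10.65 to 10.98) did not overlap, at 0.20 ± 0.09 and 0.23 ± 0.11. The 5 assembly factors were between -0.08 and 0.21.

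Complex II, succinate dehydrogenase, links the chain to the citric acid cycle. Its flavoprotein Sdha was at 10.04, 9.88 and 9.85 in wild-type and 9.91, 9.80 and 10.01 in Hsf4-null lenses, a change of -0.02 with a 95% interval of -0.27 to 0.22, so that the arrays overlapped throughout. The iron-sulfur subunit Sdhb was at -0.12 ± 0.10. Of the membrane anchors, Sdhd did not overlap (9.81 to 9.95 against 9.98 to 10.16, change 0.15 ± 0.10), and Sdhc was at 8.73, 8.80 and 8.12 in wild-type and 9.04, 8.79 and 8.84 in Hsf4-null lenses. The Sdhc change of 0.34 ± 0.19 was 0.13 without wild-type replicate 3, the lowest of its arrays. The lowest adjusted p of these 4 genes was 0.436.

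Complex III, which passes electrons from ubiquinol to cytochrome c, had 9 genes here. All 9 had an interval within 1.5-fold, with a median change of -0.0004. The Rieske iron-sulfur protein Uqcrfs1 was at 10.03, 9.98 and 9.92 in wild-type and 10.11, 10.01 and 10.003 in Hsf4-null lenses, a change of 0.07 ± 0.09. Cytochrome c1, Cyc1, had the highest estimate at 0.12 ± 0.09 and Uqcrb the lowest at -0.20 ± 0.12. The core proteins Uqcrc1 and Uqcrc2 were at 0.004 ± 0.11 and -0.16 ± 0.13, with overlapping arrays. Uqcr11 and Uqcrh, with GABP letters in their promoters, were at -0.0004 ± 0.10 and -0.004 ± 0.09.

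Complex IV, cytochrome c oxidase, held the widest range, from -0.48 to 1.52, and it is the complex with the most tissue-restricted isoforms. Its median change was -0.02 over 16 genes, and 11 of the 16 had an interval within 1.5-fold. Cox6a2, the heart and skeletal muscle isoform of subunit VIa, was at 5.70, 6.34 and 6.56 in wild-type and at 7.38, 8.56 and 7.20 in Hsf4-null lenses. Every Hsf4-null array was above every wild-type array, and Hsf4-null replicate 2 stood above the others. The change was 1.52 ± 0.37, or 2.86-fold with a 95% interval of 1.58 to 5.17, and it did not pass the threshold (limma adjusted p = 0.0891). With a variance that depends on intensity the adjusted p was 0.0450, and when each array was left out in turn it was 0.106 to 0.200, with changes of 1.09 to 1.77. Cox6a1, the isoform of most tissues, was at 11.90, 12.04 and 11.88 in wild-type and 11.73, 12.01 and 11.78 in Hsf4-null lenses, a change of -0.10 ± 0.11. Of 24 skeletal muscle markers 23 were measured, 0 were called by limma (1 was lower at an unadjusted p under 0.05), and 20 were below the lowest array median on every array. Their summed intensity was 482.5 to 538.8 in wild-type and 478.8 to 582.3 in Hsf4-null lenses.

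Cox8b, the muscle isoform of subunit VIII, had the lowest estimate of all members, with 4.23, 4.37 and 4.46 in wild-type and 4.03, 3.82 and 3.75 in Hsf4-null lenses. The change was -0.48 ± 0.12 (adjusted p = 0.0870) with no overlap, and all 6 values were below the lowest array median of 5.22. The ubiquitous Cox8a was at -0.03 ± 0.12 and Cox8c, a testis isoform that was also dim, at 0.03 ± 0.18. Cox6c was at 11.05, 11.46 and 11.35 in wild-type and 10.88, 11.08 and 10.79 in Hsf4-null lenses, a change of -0.37 ± 0.14 (adjusted p = 0.258), and wild-type replicate 1 overlapped with the Hsf4-null arrays. Its other probe set was at -0.13. Among the other isoform groups, Cox4i1 and its hypoxia-associated counterpart Cox4i2 were at -0.03 ± 0.10 and 0.05 ± 0.15, and Cox6b1 and the testis isoform Cox6b2 at -0.01 ± 0.10 and 0.35 ± 0.16. The arrays of Cox4i2 lay at 4.80 to 5.32, close to the lowest array median of 5.22, which limits what can be read for it. Cox7a2, Cox7a2l and the dim muscle isoform Cox7a1 were between -0.02 and 0.04. Ndufa4 is now assigned to complex IV, but by its symbol it was counted here in complex I and not in complex IV. It was at -0.11 ± 0.10, its Hsf4-null arrays (10.41 to 10.45) just below the wild-type arrays (10.49 to 10.65). Cox5a was likewise lower in every Hsf4-null array at -0.12 ± 0.09, and its other probe sets were at -0.24 and -0.41 and were not called. Cox7c, which ranged from 4.40 to 5.76 in wild-type, had a change of 0.04 ± 0.33.

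**Figure D2:**
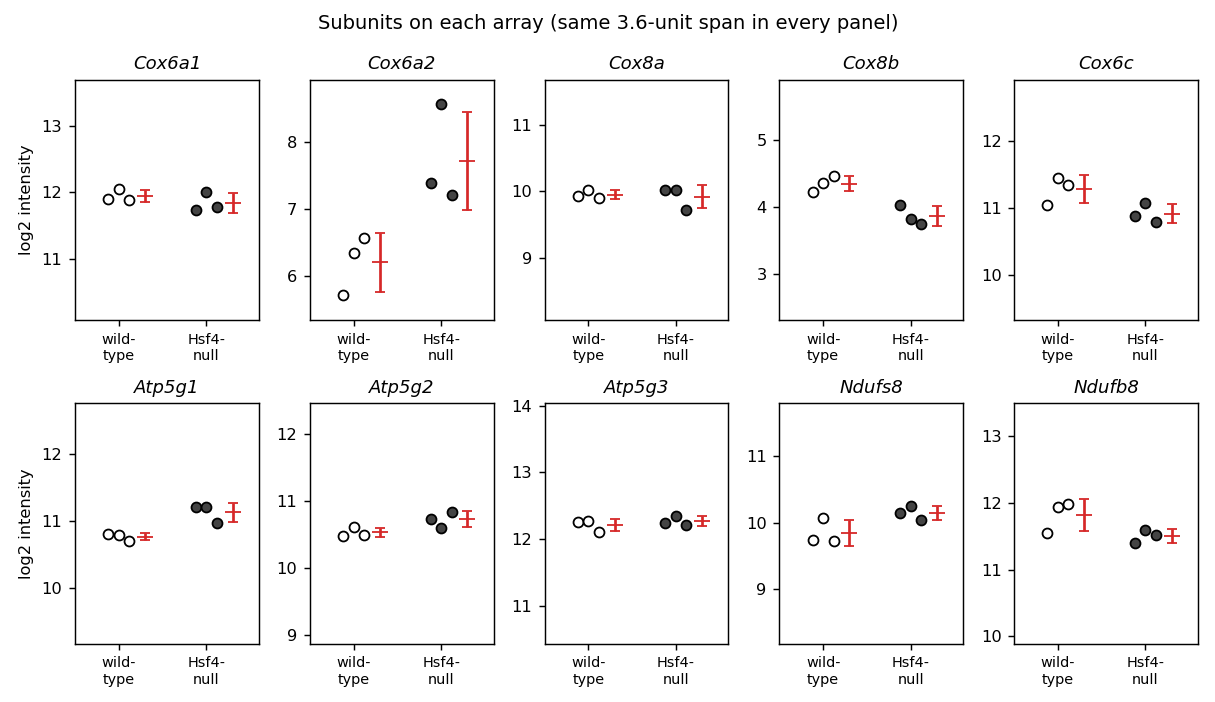
Log2 intensity (vertical axis) of 10 subunit genes on each array, open circles wild-type and filled circles Hsf4-null, with the mean and SD in red and the same span in each panel. Cox6a2 lies at 5.70 to 6.56 in wild-type and 7.20 to 8.56 in Hsf4-null lenses, while the groups of Cox6a1 overlap.

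Complex V, the ATP synthase, had a median change of 0.09 over 17 genes, of which 13 had an estimate above 0 and 16 an interval within 1.5-fold. The catalytic subunit Atp5b was at 11.80, 11.81 and 11.74 in wild-type and 11.79, 11.79 and 11.77 in Hsf4-null lenses, a change of 0.0005 ± 0.09. The other large subunit of the catalytic head, Atp5a1, was at 12.38, 12.46 and 12.45 in wild-type and 12.55, 12.52 and 12.50 in Hsf4-null lenses. Its groups did not overlap, at a change of 0.09 ± 0.09. Subunit c, which forms the rotating ring, is encoded by 3 genes that yield the same mature protein. Of these, Atp5g1 was at 10.80, 10.79 and 10.71 in wild-type and 11.21, 11.22 and 10.97 in Hsf4-null lenses, with no overlap and a change of 0.36 ± 0.11 (adjusted p = 0.156). Atp5g2 and Atp5g3 were at 0.20 ± 0.10 and 0.06 ± 0.10, both with overlapping arrays. The lowest estimate was that of Atp5l, a membrane subunit, at -0.19 ± 0.11, and Atp5h, a stalk subunit with GABP letters, was at -0.06 ± 0.10.

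The members also shifted together between the wild-type arrays. Wild-type replicate 1 held the lowest wild-type value of 52 of the 85 members, against 39.7% of the 4709 other genes of like brightness. Wild-type replicate 2 held the highest of 57 members, and the share of other genes highest there was not counted. The median deviation of the members from each gene's mean was -0.08, 0.06 and -0.01 on the wild-type arrays and 0.02, 0.01 and -0.03 on the Hsf4-null arrays. Over the other genes of like brightness it was also highest on wild-type replicate 2, at 0.03. In complex I it was -0.11, 0.10 and 0.01 on the wild-type arrays, and 29 of its 39 genes were lowest in wild-type replicate 1. The medians of the Hsf4-null arrays thus lay inside the wild-type range over all members and in complex I. In complex V they were 0.07, 0.03 and -0.01, against -0.09, 0.03 and -0.05, with an overlap at wild-type replicate 2. What sets these array-wide shifts was not tested.

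**Figure D3:**
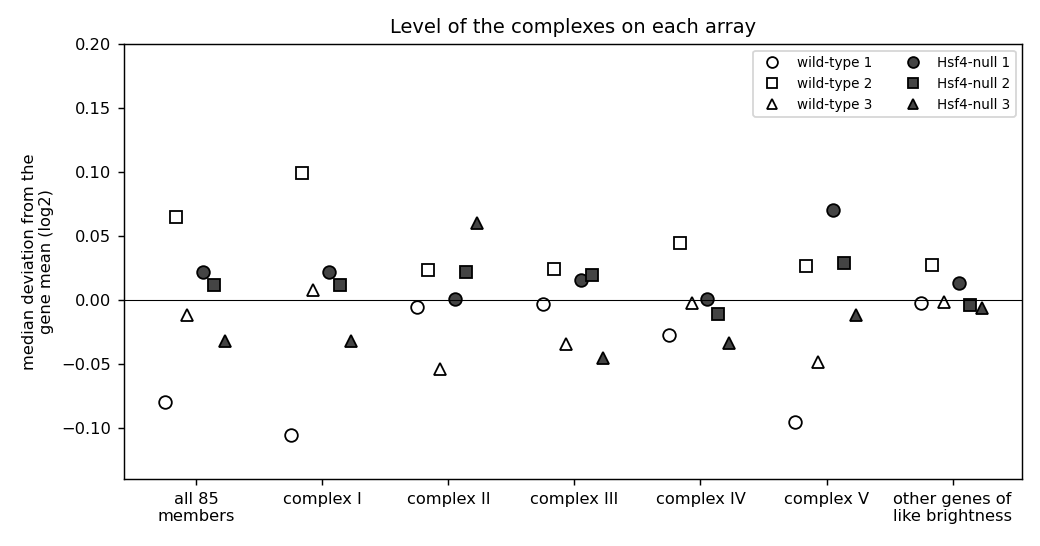
Median deviation of the genes of each complex from their mean over 6 arrays (log2, vertical axis), open symbols wild-type and filled symbols Hsf4-null, with circles, squares and triangles for replicates 1, 2 and 3. Wild-type replicates 1 and 2 lie at the edges for all members and for complex I, and the other genes of like brightness stay between -0.006 and 0.03.

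Of 45 genes with several probe sets, 24 had the same sign on each of their probe sets, the median range was 0.10 and the largest 0.41 (Ndufa12). None of the 72 other probe sets was called, and 5 had an unadjusted p under 0.05. Of these 72, 15 were below the lowest array median on every array, among them the Ndufa12 probe set at 0.12. The brighter probe sets of Ndufa12 were at -0.29, -0.26 and -0.09 and were not called. By promoter, the 16 members with NRF1 letters had a median change of -0.02 and the 54 without -0.001. The 5 with GABP letters were between -0.06 and -0.0004.

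Genes around the pathway were read from lists of its partners, and each count of called genes below stands against the 0.775% of all genes called higher and the 2.11% called lower. Of 27 measured assembly factors outside the symbol rule and of 16 genes for cytochrome c, coenzyme Q and carriers, none was called, with medians of -0.005 and 0.03. At an unadjusted p under 0.05 the assembly factors had 2 genes lower, and the second list had 1 higher and 1 lower. Over all genes 7.34% were higher and 8.38% lower at that threshold. Cytochrome c itself, Cycs, was at -0.03 ± 0.12. Of 22 genes of pyruvate dehydrogenase and the citric acid cycle, 1 rose, namely Pdk1, a kinase that inhibits pyruvate dehydrogenase. It was at 9.61, 9.12 and 9.35 in wild-type and 10.33, 10.20 and 10.41 in Hsf4-null lenses, a change of 0.95 ± 0.14 (adjusted p = 0.0128). Its other probe set was at 0.70 and was not called, and without Hsf4-null replicate 3 the adjusted p was 0.0652. At an unadjusted p under 0.05, 4 of these 22 genes were higher and 0 lower. The arrays of the groups did not overlap for 5 that were higher and 2 that were lower, against 10.1% and 11.5% of all genes.

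Among 20 regulators of mitochondrial transcription and biogenesis 2 fell and 0 rose, against 2.11% and 0.775% of all genes. Gabpa was at 8.74, 8.97 and 9.04 in wild-type and 8.09, 8.07 and 7.55 in Hsf4-null lenses, a change of -1.02 ± 0.17 (adjusted p = 0.0214). Its other probe set, with a mean of 8.21, was at -0.10 and was not called, so that the probe sets of Gabpa differ. Without wild-type replicate 2 or 3 the adjusted p of the first was 0.0900 and 0.0815. Tfb1m, a methyltransferase of the mitochondrial ribosomal RNA, was at -0.77 ± 0.15 (adjusted p = 0.0424), and lost its call without any array other than Hsf4-null replicate 2, with adjusted p of 0.0804 to 0.137 (0.0292 without that replicate). Tfam, which packages mitochondrial DNA, was at -0.08 ± 0.10, Nrf1 at 0.10 ± 0.10 on a dim probe set, and Yy1 at -0.15 ± 0.11, all with overlapping arrays.

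Of 73 mitochondrial ribosomal proteins 2 fell and 0 rose, or 2 of 73 against 2.11% of all genes called lower, with a median of 0.02. At an unadjusted p under 0.05, 3 of them were higher and 7 lower, against 7.34% and 8.38% of all genes. The arrays of the groups did not overlap for 9 that were higher and 14 that were lower, against 10.1% and 11.5% of all genes. Mrps12 was at 8.29, 8.32 and 8.13 in wild-type and 7.10, 7.26 and 7.01 in Hsf4-null lenses, a change of -1.13 ± 0.11 (adjusted p = 0.0017). Mrps26 was at 10.06, 10.37 and 10.44 in wild-type and 9.26, 9.37 and 9.002 in Hsf4-null lenses, a change of -1.08 ± 0.14 (adjusted p = 0.0077). Both encode proteins of the small subunit, and both kept their call when any array was left out. Of 27 genes of protein import, Hspa9, the chaperone that pulls proteins into the matrix, fell by 0.54 ± 0.10 (adjusted p = 0.0288). It lost the call without any array other than wild-type replicate 1, where the adjusted p was 0.0467, and at most 0.112 otherwise.

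Of 17 hypoxia-responsive genes 3 rose and 1 fell, against 0.775% and 2.11% of all genes. Besides Pdk1, Bnip3, a receptor that marks mitochondria for autophagy, was at 9.79, 9.78 and 10.13 in wild-type and 10.98, 11.06 and 10.83 in Hsf4-null lenses, a change of 1.05 ± 0.13 (adjusted p = 0.0050), and the glycolytic enzyme Aldoa rose by 0.55 ± 0.10 (adjusted p = 0.0258). Ndrg1 fell by 0.78 ± 0.12 (adjusted p = 0.0133), on all 5 of its probe sets. Aldoa lost its call whichever array was left out (adjusted p of 0.0682 to 0.1004). Ndrg1 lost it without Hsf4-null replicate 3 or wild-type replicate 2 or 3, with adjusted p of up to 0.0540. The members of the list thus did not move one way.

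**Figure D4:**
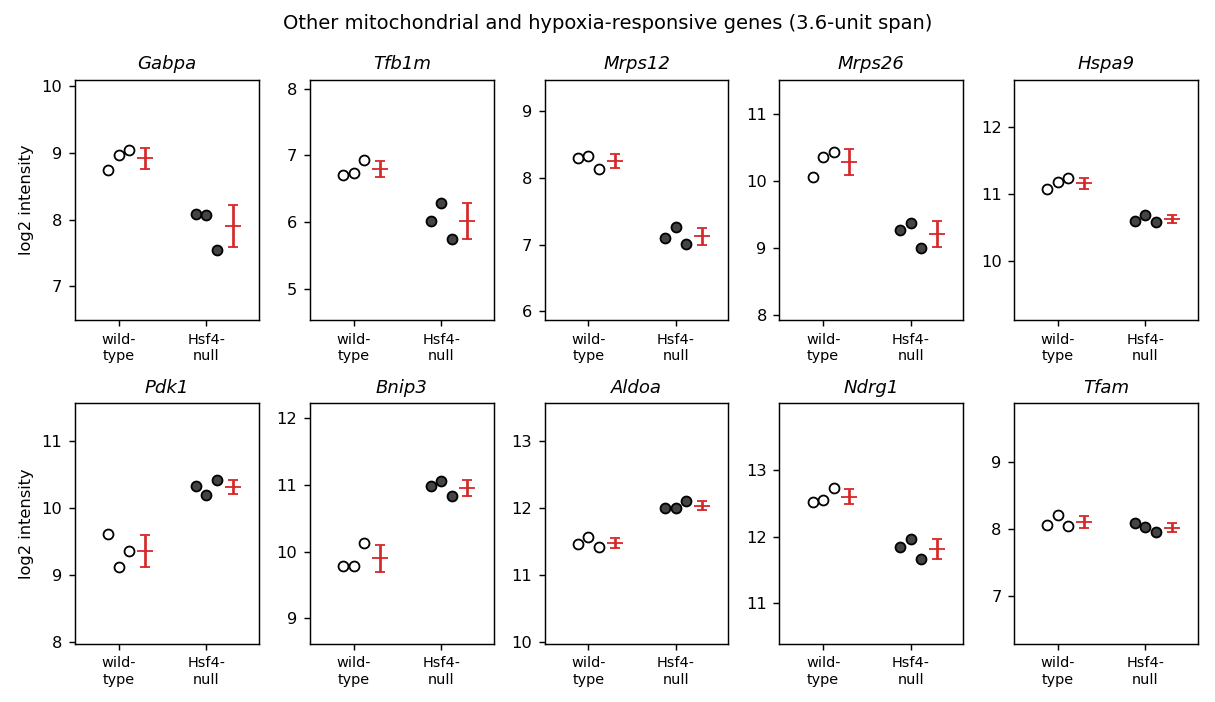
Log2 intensity (vertical axis) on each array of 9 called genes from the partner lists and of Tfam, open circles wild-type and filled circles Hsf4-null, with the mean and SD in red. The groups of the 9 called genes do not overlap, and those of Tfam do.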

How the data were processed

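RNA of newborn lenses was measured on 6 Affymetrix arrays, 3 wild-type and 3 Hsf4-null. The deposited file holds, for each array, the intensity of every probe set after RMA by the authors, not log transformed. Sources used here do not name the RMA version. Array number limits the precision.

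From the intensities log2 was taken, and 22626 probe sets (64 of 22690 are array controls and were left out) were compared between the groups in limma 3.58.1 (lmFit, then eBayes; R 4.3.3), with neither a block nor a filter on dim probe sets. A probe set was called when its p, adjusted over all probe sets after Benjamini and Hochberg (BH), was under 0.05, and errors are standard errors of the fit. The smallest p that exact permutation of 6 arrays allows is 0.1. Of the probe sets, 20380 carry 1 symbol, 691 several and 1555 are unnamed here. Symbols of 20351 were looked up by gene identifier in RefSeq (GRCm38.p6). The procedure was tested on simulated data.

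Members, lists and motifs were chosen with earlier results of these data known. Named genes are Hsf4, called members, the extremes of each complex, isoform groups, complex II, core subunits of complexes I, III and V, and up to 4 called genes per list and direction; Cycs, Tfam, Nrf1, Yy1 and members singled out by their intervals, overlap or promoter letters were chosen after their values were seen. Alternatives were the methods' t-test, the replicate block, variance and weighting options, renewed normalization, 1 probe set or the mean per gene, a filter on dim probe sets, and leaving out each array. Genes below the threshold in both settings count as the same call, also where the sign differs. SAM, which the methods combine with the t-test, was not run.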

Additional observations from a re-analysis of the deposited data

How the results depend on the processing

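For 44 named genes under 17 alternatives, 699 of 744 comparisons kept the call, 40 lost it, 5 gained it and 0 reversed. No member was called higher or lower in any alternative except 1 higher (Cox6a2) with an intensity trend in the variance, and 4 higher and 1 lower by the unadjusted t-test. Over all probe sets the 602 calls became 366 with 1 probe set per gene, 2912 by the unadjusted t-test and 85 after Benjamini-Hochberg adjustment of it, and 321 to 562 when an array was left out. Of the listed genes, 6 lower and 3 higher became 18 and 16 by the unadjusted t-test and 0 and 0 after its adjustment, and 2 to 5 lower and 2 to 3 higher when an array was left out. Renewed quantile normalization moved the medians of complexes III and IV to 0.0353 and 0.0233. Leaving out an array gave medians of -0.06 to 0.05 for complex I, 0.0308 to 0.1072 for II, -0.02 to 0.02 for III, -0.0480 to -0.0072 for IV and 0.04 to 0.11 for V. The cause of these shifts was not tested.

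With the replicate number as a replicate block, 382 probe sets were called, 2 listed genes lower and 2 higher, and 0 members in either direction. The deviations of same-numbered arrays correlated at 0.252, -0.206 and -0.081, so that the numbers were not taken to pair the arrays, and not every array correlated best with its own number. Dim probe sets (Ndufb1, Cox7a1, Cox8b and Cox8c among the members) limit what can be read for these genes. The same holds for Cox4i2 and Cox7c, whose group means lay under the lowest array median.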
